A study of Arabidopsis thaliana with 14 samples.

Results

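NAC3 (AT3G15500, also called ANAC055), ANAC019 (AT1G52890) and ANAC072 (AT4G27410, also called RD26) are a group of closely related stress genes of Arabidopsis thaliana. Binding near them was read from chromatin immunoprecipitation with sequencing (ChIP-seq) of FLM, a flowering repressor of the MADS-box family. A deposited region counted for a gene when its centre lay inside the gene, or when the gene was the nearest on one side at 5000 bp or less. This gave 18 regions of 43690 in the 3 deposited tables, with 9 of 19893 in gFLM, 6 of 13791 in iFLMbeta and 3 of 10006 in iFLMdelta. The genes were chosen by the authors' rank and by the GFP and control reads of the NAC3 region in these same libraries. GFP against control is therefore described below and not tested. RefSeq also uses the symbol NAC3 for ORS1 (AT3G29035), and in the following NAC3 always means AT3G15500.

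The groups were gFLM-GFP (3 libraries) and its controls (3 libraries), both from seedlings aged 15 days and kept at 16 °C. iFLMbeta-GFP and iFLMdelta-GFP (2 libraries each) were set against their own controls (2 libraries each), with seedlings aged 10 days and kept at 23 °C. Reads in deposited regions numbered 17293 to 437712 per library, and sequencing depth is unknown. beta and delta are splice variants of FLM. All plants were of the Columbia-0 ecotype in long days, harvested at zeitgeber time 8 h, and controls expressed FLM without a tag but went through the same precipitation with an antibody against GFP. The antibody field is blank for gFLM-GFP replicate 2, and the shared protocol names the antibody. The labels give neither the promoter that drives each construct nor the FLM genotype of the host plants, and whole seedlings hold many cell types. They do not say whether libraries came from separate plant pools, so the spread between libraries may be technical. gFLM against a variant mixes the construct with age and temperature.

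NAC proteins are a plant family of transcription factors that share a conserved DNA-binding domain at the N-terminus. NAC3, ANAC019 and ANAC072 are induced by drought, salt, abscisic acid and jasmonate, and their proteins were found through binding to the promoter of ERD1, a gene switched on by dehydration. They act downstream of MYC2, the main transcription factor of jasmonate signalling, and the jasmonate mimic coronatine induces them when bacteria force stomata to reopen. MADS-box proteins such as FLM bind DNA as dimers at CArG boxes, short sites with an A and T rich core. FLM is best known for flowering control by ambient temperature, in which the beta variant acts with the related repressor SVP.

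NAC3 had a single strong region, past its 3' end, and it was found in gFLM and in iFLMbeta. In build TAIR10 the gFLM region spans chr3:5236643-5236990 and its centre lies 728 bp past the end of NAC3. The distances in the tables place the gene itself at 5234617 to 5236089 on the plus strand. The next gene on the other side is ANAC056 (AT3G15510), another NAC gene on the same strand known for a role in the ovule integuments, whose start is 6693 bp away. The iFLMbeta region spans chr3:5236673-5236945, lies wholly inside the gFLM region, and has its centre 8 bp from that of gFLM.

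At the NAC3 region the gFLM-GFP libraries held 337, 75 and 81 reads, against 13, 2 and 19 reads in the control libraries of the same numbers. The iFLMbeta-GFP libraries held 97 and 162 reads, against 12 and 6 reads in the iFLMbeta controls. Every GFP library held more reads there than any control library of its construct. In iFLMbeta all 6 regions at the NAC genes had this, the weak ones included. At the best ranked regions of ANAC072 and ANAC019 the reads were 22 and 31 against 7 and 14, and 20 and 23 against 10 and 3. So had the iFLMdelta regions of ANAC019 in the coding exon and 954 bp upstream. The share of all deposited regions with this was not counted, and nothing is read from it. In deposited regions the iFLMbeta-GFP libraries held 194811 and 181951 reads, and the iFLMbeta controls 108460 and 52819. Library sizes differ, so reads were also expressed per 100000 reads in all deposited regions of the same library. On that scale gFLM-GFP stood at 77.0, 100.3 and 51.5, against 7.12, 11.6 and 9.58 in gFLM controls. For iFLMbeta-GFP the values were 49.8 and 89.0, against 11.1 and 11.4 in iFLMbeta controls. The GFP and control values did not overlap in either construct. Neither did they at the best ranked ANAC019 region in iFLMbeta, at 10.3 and 12.6 against 9.22 and 5.68. At the gFLM region 2992 bp upstream of NAC3 the values did not overlap in the opposite direction. There gFLM-GFP stood at 8.22, 6.69 and 5.08, below gFLM controls at 13.7, 11.6 and 9.08. The share of all deposited regions without overlap was not counted, so nothing is read from the lack of overlap. A looser condition was GFP above control in every same-numbered pair, with 1 read added to each count. It held at 4.95% of all deposited gFLM regions and 12.9% of iFLMbeta regions.

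**Figure D1:**
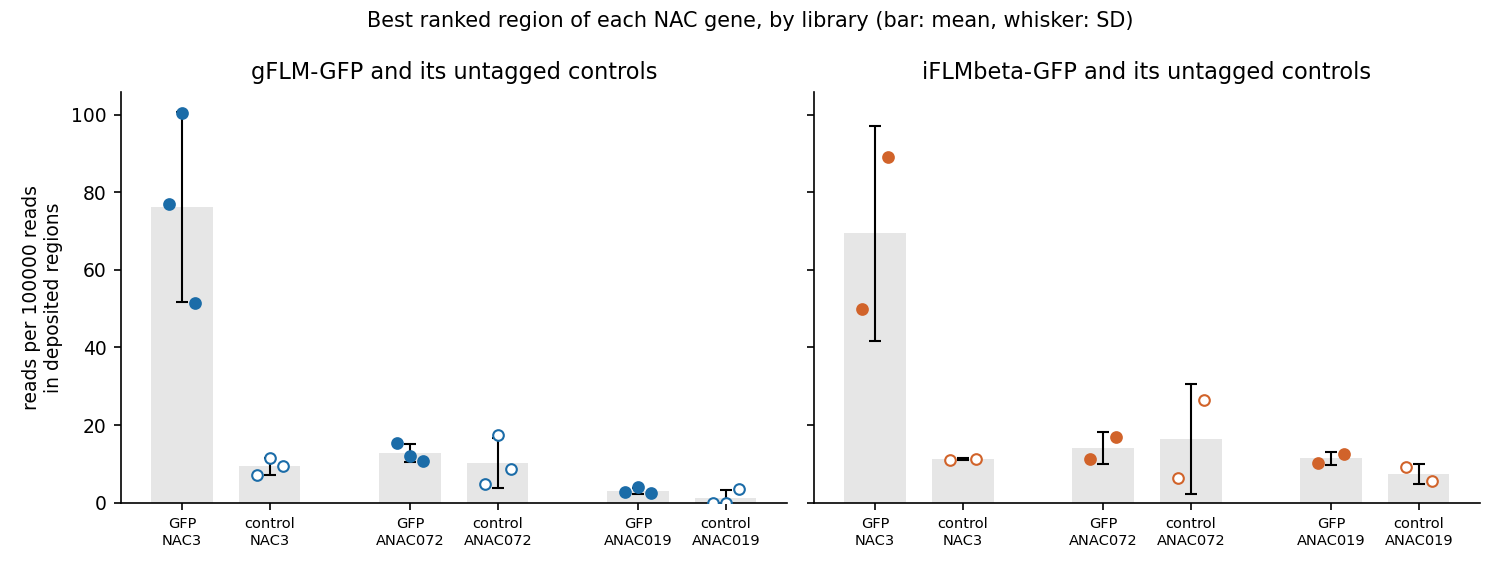
Reads per 100000 reads in deposited regions at the best ranked region of NAC3, ANAC072 and ANAC019, for gFLM (left) and iFLMbeta (right). Filled points are GFP libraries, open points control libraries, bars means and whiskers SDs. At NAC3 all GFP points, from 49.8 to 100.3, lie above all control points, from 7.12 to 11.6. At ANAC072 GFP and control points overlap, and at ANAC019 they overlap in gFLM and not in iFLMbeta.

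The log2 ratio of GFP to control reads, with a pseudocount of 1 read and scaled to the reads in all deposited regions, sets libraries with the same number against each other, in the variants by column number alone. It was 3.33, 2.55 and 2.37 in the gFLM replicates. Its mean was 2.75 ± 0.51 (SD, n = 3), a 6.73-fold enrichment. Replicate numbers are only names, so the SD depends on which control is set against which GFP library and the mean does not. Over the 6 possible pairings of the gFLM libraries the SD ran from 0.19 to 1.08, and over all 9 pairs of a GFP and a control library the lowest ratio was 1.59. In iFLMbeta the ratio was 2.07 and 2.76, with a mean of 2.41 ± 0.49 (SD, n = 2) or 5.33-fold. Reads in single libraries limit these values. The 95% exact binomial intervals of the ratio without pseudocount were 2.64 to 4.36, 1.21 to 6.19 and 1.69 to 3.23 in gFLM, and 1.30 to 3.17 and 1.82 to 4.44 in iFLMbeta. The intervals cover counting error only, and PCR copies are not independent molecules. The widest belongs to gFLM replicate 2, whose control held 2 reads.

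In the authors' deposited table of gFLM the NAC3 region ranked 14 of 19893, and its q-values were 6.81e-50, 2.27e-14 and 6.70e-22. In the authors' deposited table of iFLMbeta it ranked 12 of 13791 with q-values of 1.38e-16 and 6.48e-25. A region is called passing here when all replicates of the construct had a q of at most 0.05, and the NAC3 region passed in both. Of the 9 gFLM regions at the NAC genes 1 passed, where 0.799% of all deposited gFLM regions did. Of the 6 iFLMbeta regions 1 passed, where 1.46% of all deposited iFLMbeta regions did. Of the 3 iFLMdelta regions 0 passed, where 0.41% of all deposited iFLMdelta regions did. Nothing is read from these counts, since the genes were chosen with them in view. By mean log2 ratio the NAC3 region was number 23 of the 159 passing gFLM regions, whose median was 1.68, and number 11 of the 202 passing iFLMbeta regions, whose median was 1.01.

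**Figure D2:**
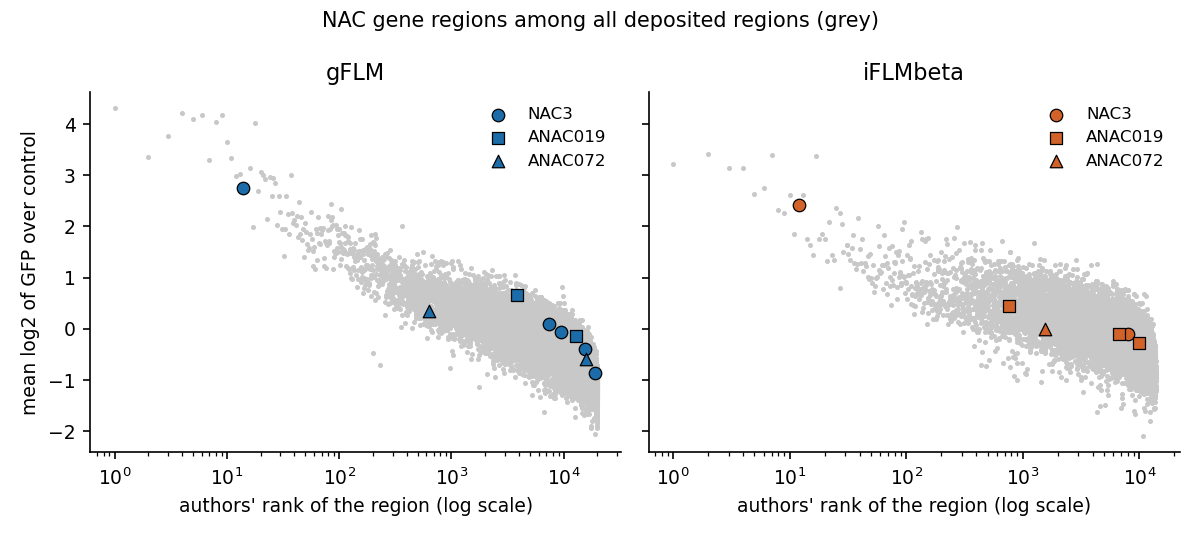
Mean GFP to control log2 ratio against the authors' rank, on a log axis, for all deposited regions (grey) and the NAC gene regions (coloured) of gFLM and iFLMbeta. The NAC3 region stands at ranks 14 and 12, apart from the other NAC gene regions, which begin at rank 638 in gFLM and 766 in iFLMbeta.

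ANAC072 had a weaker region, on the other side of the gene. RD26, its older name, stands for responsive to desiccation, and the protein activates drought and abscisic acid responses. The gFLM region (chr4:13709317-13709656) is intergenic, centred 337 bp upstream of ANAC072 and 1061 bp from AT4G27415. It held 67, 9 and 17 reads in gFLM-GFP, against 9, 3 and 17 reads in gFLM controls. The replicates disagreed, with log2 ratios of 1.504, -0.79 and 0.33 in replicates 1 to 3 and a mean of 0.35 ± 1.15 (SD, n = 3). In the authors' deposited table the q-values were 2.10e-05, 0.502 and 0.0999 at rank 638, so that 1 of 3 replicates was at 0.05 or less.

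The iFLMbeta region of ANAC072 (chr4:13709156-13709399) lies 128 bp upstream of the gene and shares 83 bp with that of gFLM. Its centre is 209 bp closer to the gene. It held 22 and 31 reads in iFLMbeta-GFP, against 7 and 14 reads in iFLMbeta controls, which is a log2 ratio of 0.68 and -0.69 and a mean of -0.01 ± 0.97 (SD, n = 2). The scaled GFP and control values overlapped in gFLM and in iFLMbeta. A second gFLM region of ANAC072 is centred in its 3' UTR (chr4:13707724-13707873). It held 21, 3 and 5 reads in gFLM-GFP, against 17, 0 and 11 reads in gFLM controls, with a mean log2 ratio of -0.58 ± 0.44 (SD, n = 3).

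None of the ANAC019 regions passed in any construct. The gene lies on the minus strand of chromosome 1, at 19697004 to 19698483 by the distances in the tables, and it is flanked past its 3' end by NAM (AT1G52880), a NAC gene known for a role in the ovule integuments. Its best ranked gFLM region (chr1:19692416-19692608) is 4492 bp past the end of ANAC019 and 1969 bp upstream of NAM, and so nearer to NAM. It held 12, 3 and 4 reads in gFLM-GFP, against 0, 0 and 7 reads in gFLM controls. The log2 ratios were 2.44, -0.11 and -0.35, with a mean of 0.66 ± 1.54 (SD, n = 3), so that the mean rests on replicate 1. The other gFLM region (chr1:19694050-19694247), 2855 bp past the end, held 12, 2 and 6 reads in gFLM-GFP, against 3, 0 and 10 reads in gFLM controls, with a mean log2 ratio of -0.14 ± 0.51 (SD, n = 3).

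In iFLMbeta the best ranked ANAC019 region (chr1:19702727-19702988) is 4375 bp upstream of the gene but inside a coding exon of AT1G52900. It held 20 and 23 reads in iFLMbeta-GFP, against 10 and 3 reads in iFLMbeta controls. The mean log2 ratio was 0.44 ± 0.50 (SD, n = 2), above 0 in 2 of 2 replicates, and the authors' deposited table gives q-values of 0.104 and 0.0404. The region in the coding exon of ANAC019 itself (chr1:19697216-19697419) stood at -0.09 ± 0.43 (SD, n = 2), and that 3000 bp upstream at -0.27 ± 0.10 (SD, n = 2).

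iFLMdelta had deposited regions at ANAC019 and at neither of the other genes. The region in the coding exon (chr1:19697291-19697489) held 29 and 15 reads in iFLMdelta-GFP, against 12 and 10 reads in iFLMdelta controls, with a mean log2 ratio of -0.04 ± 0.09 (SD, n = 2). The region 954 bp upstream held 15 and 7 reads in iFLMdelta-GFP, against 6 and 3 reads in iFLMdelta controls, with a mean of 0.18 ± 0.42 (SD, n = 2). The region 2067 bp past the end stood at -0.08 ± 0.62 (SD, n = 2). GFP and control differed by no more than the spread between replicates at these 3 regions. The iFLMdelta region nearest to the NAC3 region is 10666 bp from it (rank 9693, mean log2 ratio -0.33 ± 0.56, SD, n = 2). The tables give reads only at regions listed for the same construct, so iFLMdelta reads at the NAC3 region were not analysed here, and a low level of iFLMdelta there cannot be told apart from a region that was not called.

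The other 5 regions near NAC3 did not resemble the strong one. In gFLM a region 557 bp upstream of the gene held 5, 4 and 7 reads in gFLM-GFP, against 2, 0 and 7 reads in gFLM controls, and stood at a mean log2 ratio of 0.09 ± 0.31 (SD, n = 3). One in the coding exon stood at -0.06 ± 1.04 (SD, n = 3), one 1891 bp past the end at -0.40 ± 0.36 (SD, n = 3) and one 2992 bp upstream at -0.87 ± 0.21 (SD, n = 3). The iFLMbeta region 4121 bp upstream, inside a coding exon of AT3G15490, stood at -0.11 ± 0.37 (SD, n = 2). The region at 1891 bp is centred 1163 bp from the strong region.

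**Figure D3:**
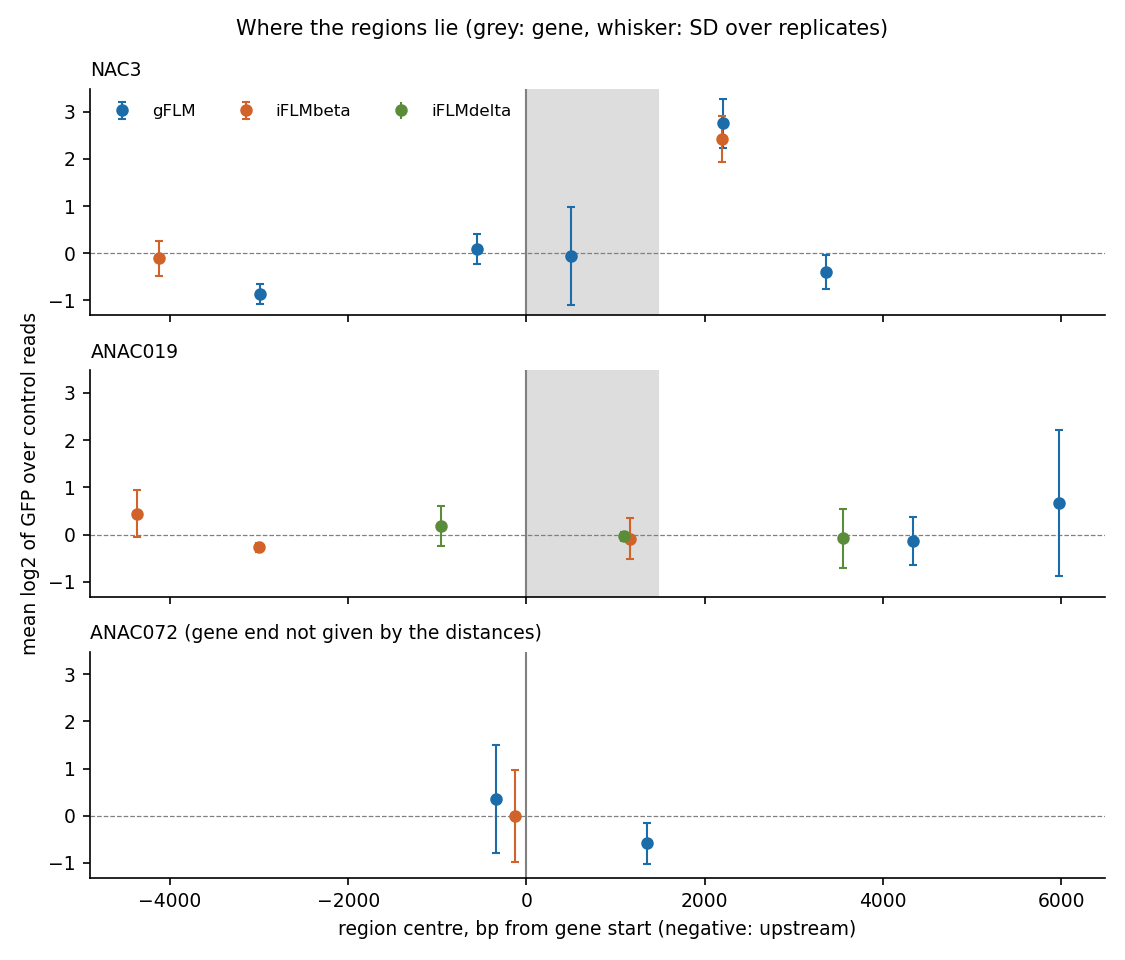
Mean GFP to control log2 ratio (whiskers: SD over replicates) against the distance of the region's centre from the gene's start, for NAC3, ANAC019 and ANAC072, with the gene in grey where both its ends follow from the tables. The gFLM and iFLMbeta regions past the end of NAC3 coincide at 2.75 and 2.41, and the remaining regions lie between -0.87 and 0.66.

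Ordered by mean log2 ratio, NAC3 came first in gFLM at 2.75, followed by ANAC019 at 0.66 and ANAC072 at 0.35, each at its best ranked region. ANAC019 and ANAC072 did not differ beyond their spread, and with a pseudocount of 5 reads their order turned, with ANAC019 at -0.34 and ANAC072 at 0.043. A single ANAC019 replicate, at 2.44 from 12 GFP reads and 0 control reads, exceeded the lowest NAC3 replicate at 2.37. In iFLMbeta the order was NAC3 at 2.41, ANAC019 at 0.44 (-0.043 with a pseudocount of 5 reads) and ANAC072 at -0.01. The lowest replicate of the strong NAC3 region there, 2.07, was above the highest replicate of any other NAC gene region, 0.80. Within replicates, NAC3 exceeded ANAC072 by 1.83, 3.34 and 2.04 on the log2 scale in gFLM (mean 2.40 ± 0.82, SD, n = 3) and by 1.39 and 3.45 in iFLMbeta (mean 2.42 ± 1.45, SD, n = 2). It exceeded ANAC019 by 0.89, 2.66 and 2.71 in gFLM (mean 2.09 ± 1.04, SD, n = 3) and by 1.98 and 1.96 in iFLMbeta (mean 1.97 ± 0.02, SD, n = 2). As paired here, all of these differences were above 0. Libraries are paired by number alone, so the single differences and their SDs depend on the pairing and the mean differences do not. The SD of 0.02 in iFLMbeta is therefore no measure of precision. The differences are not tested, since the genes were chosen for this contrast.

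**Figure D4:**
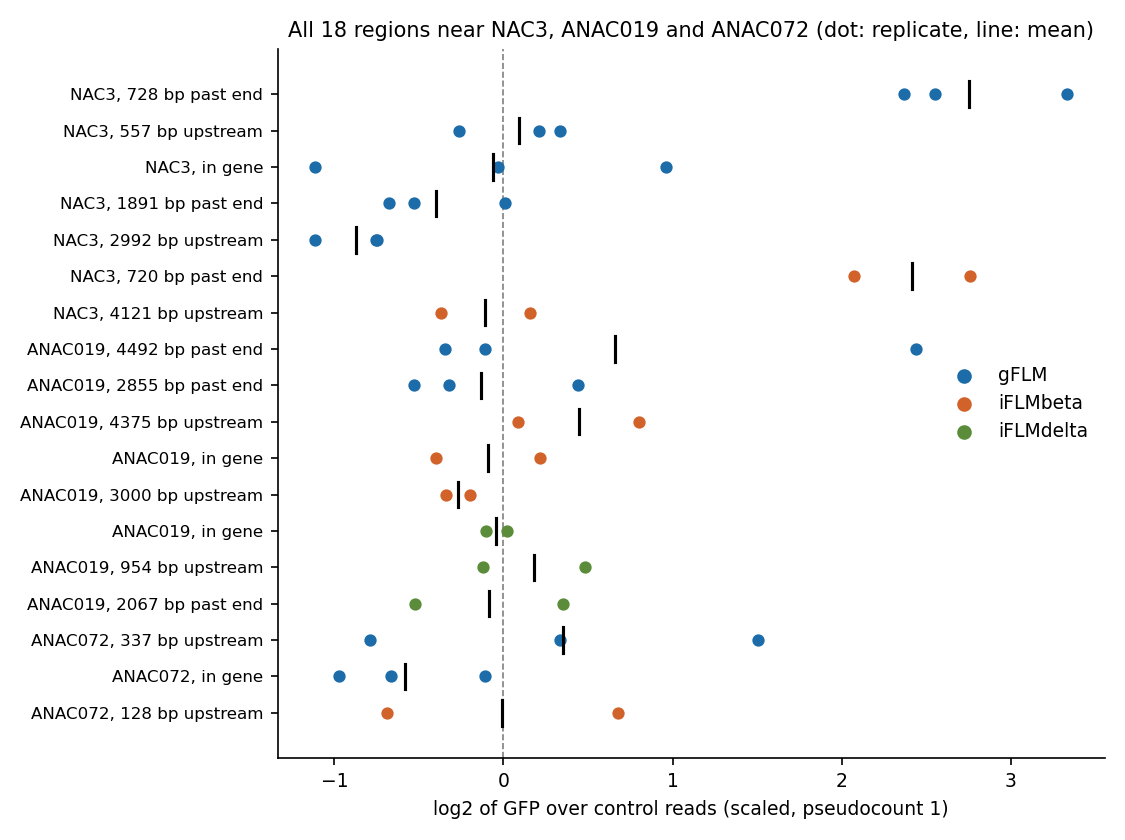
Log2 ratio of GFP to control reads in each replicate (dots) and its mean (black lines) at all 18 regions, by gene and construct. The NAC3 region past the gene's end has every replicate between 2.07 and 3.33, and among the others a single replicate, at ANAC019 in gFLM, reaches 2.44.

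Besides the strong NAC3 region of gFLM and that of iFLMbeta, none of the NAC gene regions passed. Their mean log2 ratios ran from -0.87 to 0.66 in gFLM, from -0.27 to 0.44 in iFLMbeta and from -0.08 to 0.18 in iFLMdelta. The mean was above 0 at 3 of 8, 1 of 5 and 1 of 3 of them. Over all deposited regions a mean above 0 was found at 26.4% in gFLM, 35.5% in iFLMbeta and 47.3% in iFLMdelta, and nothing is read from the counts. TMM scaling, an alternative, moved all gFLM means by 0.28 and turned 2 of the 8 to above 0, at -0.14 and -0.06 before. A pseudocount of 5 reads turned 4 of the 18 means to below 0. The ratio was above 0 in every replicate at 1 of 9 regions in gFLM, 2 of 6 in iFLMbeta and 0 of 3 in iFLMdelta, where 4.95%, 12.9% and 17.9% of all deposited regions had this. The rule stops at 5000 bp. Just inside it is the ANAC019 region at 4492 bp given above, and just outside it is an iFLMdelta region 5638 bp from ANAC019, at -0.50 ± 1.17 (SD, n = 2).

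Whether binding differed between constructs was tested where both tables list a region, by an interaction term in edgeR's quasi-likelihood test over all regions deposited in both. At NAC3 the log2 enrichment of gFLM exceeded that of iFLMbeta by 0.30, with a 95% interval of -1.13 to 1.73 (adjusted p = 0.9998 by edgeR, over 2161 regions). The interval leaves room for a change in either direction of more than the spread between replicates. The NAC3 region was chosen with its reads in these libraries in view, so the value there is not independent of that choice. Regions listed for 1 construct alone could not enter the test. At ANAC072 the difference was 0.71, with a 95% interval of -1.005 to 2.42 (adjusted p = 0.9998 by edgeR), and it turned to -0.50 without the second iFLMbeta control library. The ANAC072 regions share only 83 bp, 24.4% of the gFLM region and 34.0% of the iFLMbeta region, so largely different stretches were compared. edgeR called 0 of the 2161 regions (0%) and put 28 under an unadjusted p of 0.05. DESeq2 also called 0 and put 14 there. With intervals this wide, 0 calls do not show that the constructs bind alike.

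iFLMbeta and iFLMdelta, grown alike, share 1 region at these genes, that in the coding exon of ANAC019, where 129 bp overlap. The log2 enrichment of iFLMbeta minus that of iFLMdelta was -0.15, with a 95% interval of -1.93 to 1.63 (adjusted p = 0.999 by edgeR, over 516 regions). Its sign changed with the processing, as it was 0.054 with all low counts kept. edgeR called 0 of these regions (0%) and put 3 under an unadjusted p of 0.05, and DESeq2 called 0 and put 2 there. The strong NAC3 region could not be compared between the variants.

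NAC3 is not alone on its stretch of chromosome 3. Within 25000 bp of the NAC3 region 18 other gFLM regions were deposited, and the single passing one among them is in the 3' UTR of AT3G15470, with its centre 20409 bp away. In the authors' deposited tables that region ranked 2 in gFLM and 1 in iFLMbeta. Its mean log2 ratio in gFLM was 3.36 ± 0.25 (SD, n = 3), and the iFLMbeta mean was 3.21 ± 0.23 (SD, n = 2). The median of the 18 was -0.30. Of 6 other iFLMbeta regions in that window 1 passed, the one at AT3G15470, and of 4 iFLMdelta regions 0 passed. Around the gFLM region of ANAC072 none of 12 other gFLM regions within 25000 bp passed.

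**Figure D5:**
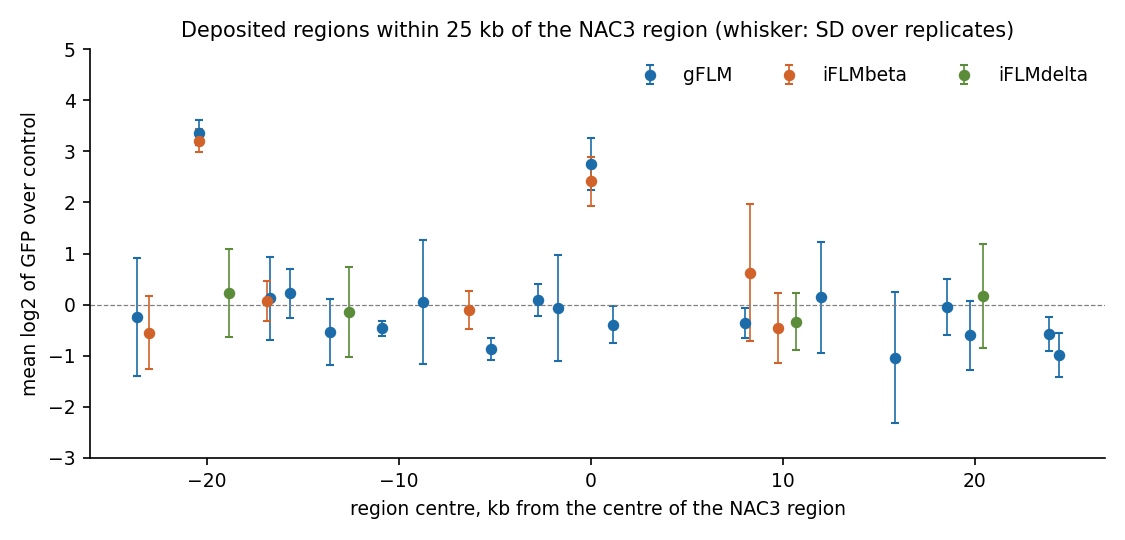
Mean GFP to control log2 ratio (whiskers: SD over replicates) at all deposited regions within 25000 bp of the NAC3 region, by distance from its centre. Besides the NAC3 region at 0, the region at AT3G15470, 20409 bp to the left, is the other place where gFLM and iFLMbeta exceed 2.

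A place just past a gene's end was shared with other regions. Of the 159 passing gFLM regions 29 (18.2%) were intergenic with a 3' end as the nearest gene edge, at 1000 bp or less, and of all 19893 deposited gFLM regions 17.3% were. In iFLMbeta 41 of 202 passing regions (20.3%) had that position, and 11.3% of all deposited regions. These shares are lower bounds, because 5131 gFLM and 1131 iFLMbeta regions lack the strand of a neighbouring gene and could not be counted there. Among intergenic regions with the strands given, a 3' end was nearest at 32.8% of passing and 35.4% of all deposited gFLM regions. In iFLMbeta these shares were 38.1% and 39.1%. By its place past a gene's end the strong NAC3 region differs from the best ranked regions of ANAC072, which are upstream and did not pass. The best ranked gFLM region of ANAC019, which did not pass either, is also past its gene's end, at 4492 bp. A second gFLM region of ANAC072 is in the 3' UTR.

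Some regions had a pattern close to that of NAC3 over the 5 replicate ratios of gFLM and iFLMbeta. Likeness was measured as Euclidean distance over the log2 ratios, at 2330 other regions deposited in both tables, whose median distance was 6.36. The 5 nearest begin with a region between AT3G03456 and AT3G03460 at a distance of 1.04 and one between RS2Z32 and ABCG20 at 1.07. Next came one just past the end of bZIP44 at 1.36, one 114 bp upstream of SOC1 at 1.36 and one between AT5G39960 and AT5G39970 at 1.40. The regions given as between genes also have a 3' end as the nearest gene edge. They lie 171 bp past the end of AT3G03460, 55 bp past that of ABCG20 and 431 bp past that of AT5G39960. Upstream of the gene on their other side they lie at 223, 65 and 535 bp. SOC1 is a MADS-box activator of flowering, RS2Z32 encodes a splicing factor, ABCG20 a transporter and bZIP44 a transcription factor. The mean log2 ratio of these 5 ran from 2.74 to 3.30 in gFLM and from 1.64 to 2.61 in iFLMbeta. All 5 passed in both constructs. Nothing is read from this, since they were picked for ratios like those of the NAC3 region.

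Regions near 52 other genes of the NAC family and of jasmonate and abscisic acid signalling were read by the same rule. Passing regions were found near 1 of the 52 in gFLM, near 2 in iFLMbeta and near 0 in iFLMdelta, where 46, 40 and 27 of the genes had any deposited region. By region this is 1 of 88 in gFLM (1.14%), 2 of 63 in iFLMbeta (3.17%) and 0 of 41 in iFLMdelta. Of all deposited regions 0.799%, 1.46% and 0.41% passed, so counts this small do not set these genes apart, and neither do the counts of 0 in the lists that follow. The gene found in both constructs was NCED3, which encodes a rate-limiting enzyme of abscisic acid synthesis under drought. Its gFLM region (chr3:4829105-4829373) lies 2049 bp past the end of NCED3, again on the 3' side, with AT3G14431 next on the other side at 3881 bp. It held 66, 22 and 37 reads in gFLM-GFP, against 5, 0 and 17 reads in gFLM controls, and stood at a mean log2 ratio of 2.01 ± 0.53 (SD, n = 3). In iFLMbeta the region (chr3:4829129-4829379) held 26 and 42 reads in iFLMbeta-GFP, against 9 and 5 reads in iFLMbeta controls, and stood at 0.82 ± 0.33 (SD, n = 2).

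The second gene with a passing region in iFLMbeta was CUC3, a NAC gene that sets organ boundaries. Its region (chr1:28677929-28678162) is 4111 bp upstream of CUC3 and 889 bp from AT1G76430, and so nearer to AT1G76430. It held 33 and 52 reads in iFLMbeta-GFP, against 8 and 8 reads in iFLMbeta controls, at a mean log2 ratio of 0.92 ± 0.21 (SD, n = 2). In gFLM the region at the same place stood at 0.98 ± 1.46 (SD, n = 3) and missed the threshold in replicate 2, where the authors' deposited table gives q = 0.455.

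Of the closest paralogs, 0 of 5 (ANAC056, NAM, ANAC025, NAP and ANAC047) had a passing region in any construct, and 4 of the 5 had any region in each construct. The mean log2 ratio at their best ranked regions ran from 0.14 to 0.66 in gFLM and from -0.57 to 0.62 in iFLMbeta, and the value of 0.66 is that of the region between NAM and ANAC019. The ATAF clade, which holds ATAF1 and other NAC regulators of wounding and stress responses, had 0 of 4, and the senescence and other stress NAC genes had 0 of 11. Their gFLM means at the best ranked regions ran from -0.29 to 1.11 and from -0.65 to 1.37. The highest belong to ATAF1 (authors' q-values 0.00198, 0.295 and 0.0361) and ANAC096 (3.58e-06, 0.00193 and 0.0844). Both regions lie inside the gene, and both genes are singled out after their values were seen. Of the jasmonate genes 0 of 10 had a passing region. MYC4, a relative of MYC2, came closest in gFLM at 1.99 ± 0.94 (SD, n = 3), from 97, 9 and 20 reads in gFLM-GFP against 4, 0 and 7 reads in gFLM controls, and it is named here after its value was seen. Its region is 3800 bp past the end of MYC4 and only 47 bp from PYR1 (AT4G17870), an abscisic acid receptor. Among 8 known targets and partners of the NAC proteins, ERD1 included, 0 had a passing region.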

How the data were processed

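One deposited region table per construct was used. Per the file headers, a row gives position, size, raw counts for all GFP and control libraries, adjusted q-values (1 for each replicate), a log2 rank product over them, the rank and nearby genes. The counts were deposited by the authors without normalization. Coordinates are in TAIR10, as the submitters' processing notes name it. Aligner, peak caller and duplicate handling: not given in the sources used here. Reads in deposited regions ran from 17293 to 437712 per library in gFLM, with replicate 2 lowest of both kinds, from 52819 to 194811 in iFLMbeta and from 71083 to 211113 in iFLMdelta.

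Gene fields were parsed by their quotes, because tabs inside them shift later fields. Still, 1218 gFLM, 278 iFLMbeta and 169 iFLMdelta rows lack the gene on one side or its distance, and by position 0 of these lay within 5000 bp of a NAC gene. The strand of the gene on that side is missing in 5131 gFLM, 1131 iFLMbeta and 707 iFLMdelta rows. The far end of ANAC072 does not follow from the distances, so its window was checked from its start. Log2 ratios pair GFP and control columns by number, which for iFLMbeta and iFLMdelta name no library, and 0 columns were left without a sample or group. Regions of 2 tables were matched at 1 bp of overlap. The interaction was fitted with edgeR 4.0.16 in R 4.3.3 (TMM, filterByExpr, Benjamini-Hochberg) and, as an alternative, DESeq2 1.42.0, and run on simulated data as a check of the code. All 52 listed genes matched the RefSeq table. The members and lists were chosen with earlier results of these data known. Named were the 3 genes, the genes beside their regions, listed genes with a passing region and the 5 regions most like the NAC3 region. ATAF1, ANAC096 and MYC4 were singled out after their values were seen. No genome sequence was used here, so motifs were not searched.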

Additional observations from a re-analysis of the deposited data

How the results depend on the processing

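The NAC3 log2 ratio in gFLM was 2.19 with a pseudocount of 5 reads, against 2.75 with 1, and 2.46 to 2.94 when single replicates were left out; in iFLMbeta leaving out a replicate gave 2.07 to 2.76. Of 144 alternative values over the 18 regions, 136 lay within 1 SD of the reported value, but these SDs are wide and weak means changed sign. Leaving out a replicate or reordering the controls cannot move a mean by 1 SD, so those values could not fail. The 8 values that moved came from other scalings or pseudocounts. The strong NAC3 region of gFLM with a pseudocount of 5 is 1 of them, as its SD was 0.51. A pseudocount of 5 changed the sign of 4 means. It put ANAC019 at -0.34 in gFLM (0.66 as reported), at -0.043 in iFLMbeta (0.44) and, 954 bp upstream in iFLMdelta, at -0.19 (0.18). The gFLM region 557 bp upstream of NAC3 came to -0.56 (0.094), and of these 4 it alone moved by more than 1 SD. The strong NAC3 region kept its sign throughout. TMM scaling moved all gFLM means by 0.28, all iFLMbeta means by -0.02 and all iFLMdelta means by -0.14. Counting q of 0.05 or less in at least 1 replicate gave 3 regions in gFLM and 3 in iFLMbeta, in place of 1 each, and 0 in iFLMdelta; 13.3%, 16.1% and 20.3% of all regions meet that rule. With q of 0.01, or within 3000 or 1000 bp, the counts stayed at 1, 1 and 0. No setting gave a called interaction, and adjusted p ran from 0.992 upward. The NAC3 difference between gFLM and iFLMbeta stayed above 0, from 0.10 to 0.81 over 15 alternatives. That of ANAC072 ran from -0.50, without the second iFLMbeta control library, to 1.65, without the first. That of ANAC019 between iFLMbeta and iFLMdelta was above 0 with all low counts kept (0.054), without the first iFLMbeta-GFP library (0.13) and without the first iFLMbeta control library (0.50), and its lowest value was -0.20. With the replicate block the 3 differences were 0.32 at NAC3, 0.63 at ANAC072 and -0.11 at ANAC019, with 0 calls. Deviations of same-numbered gFLM libraries correlated at 0.26, 0.01 and 0.17, and those of differently numbered ones at -0.27 to 0.11. The tested difference has no replicate block, and the block was run as the alternative given above. The ratios do set same-numbered libraries against each other, and their means are the same in other orders of the controls, an alternative chosen after seeing the data. The cause of these shifts was not tested.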
